A study of Mus musculus with 16 samples.

Results

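The albumin gene cluster of the mouse holds Alb, Afp and Afm side by side on chromosome 5, and the H3K27Ac peaks of 15 animals were followed over it. The members were all peaks overlapping the mm9 window chr5:90870000-90995000, with Alb taken as 90890000 to 90906000 and Afp as 90919000 to 90938000. Afm lies downstream of Afp, and its limits are not given in this build, so the 57000 bp from the end of Afp to the end of the window are described as 1 piece that holds Afm. The window contained 120 of the 500869 peaks in the 15 lists, and these merged into 9 of 56941 regions.

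Alb encodes serum albumin, the main plasma protein and a defining product of hepatocytes. Afp encodes alpha-fetoprotein, the albumin of the fetus, which is silenced in liver after birth and is used as a serum marker of hepatocellular carcinoma. Afm encodes afamin, a vitamin E binding plasma protein of the same family. H3K27Ac is an acetylation of histone H3 found at active promoters and enhancers, and enhancers of Afp are known to lie between Alb and Afp.

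The samples were livers of 5 WT mice, livers of 5 Mdr2-KO mice at the inflamed stage and HCC nodules of 5 Mdr2-KO mice, with 1 animal per library. The labels give the strain FVB.129P2 for WT mice and FVB.129P2-Abcb4tm1Bor/J for Mdr2-KO mice, which lack the bile canalicular phospholipid transporter in the whole body. WT livers and nodules came from animals of 14 to 19 months and inflamed livers from animals of 7 to 8 months, so stage and age cannot be told apart between inflamed livers and the other groups. All 15 animals had received clodronate liposomes (50 μg per g of body weight, 48 h), which deplete macrophages, and the tissue was otherwise unsorted. In such tissue, fewer cells carrying a mark and less of the mark per cell cannot be told apart.

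The lists held 26375 to 42736 peaks covering 92.5 to 175 Mb, and the read depth behind them is unknown. Scores, from 50 to 3233.06, were used only as a rank within a list, because 10.1% to 25.2% of each list stood at 3100 or above. Alb, the defining hepatocyte gene, lay under a peak in 13 of 15 animals. The exceptions were WT 130748 and HCC 124711, which had no peak anywhere within Alb. Their best peak in the window stood at percentile 52.0 and 36.2 of the scores in its list, against 81.3 to 89.9 in the other 13 animals. In each of those 13 the best peak scored 3100, so its percentile is the share of the list below 3100 and does not rank the animals. WT 130748 had 109 Mb and HCC 124711 had 92.5 Mb under peaks, the smallest lengths in their groups. Both were kept, and the comparisons of covered length were also made without them, a choice made after their values were seen.

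**Figure D1:**
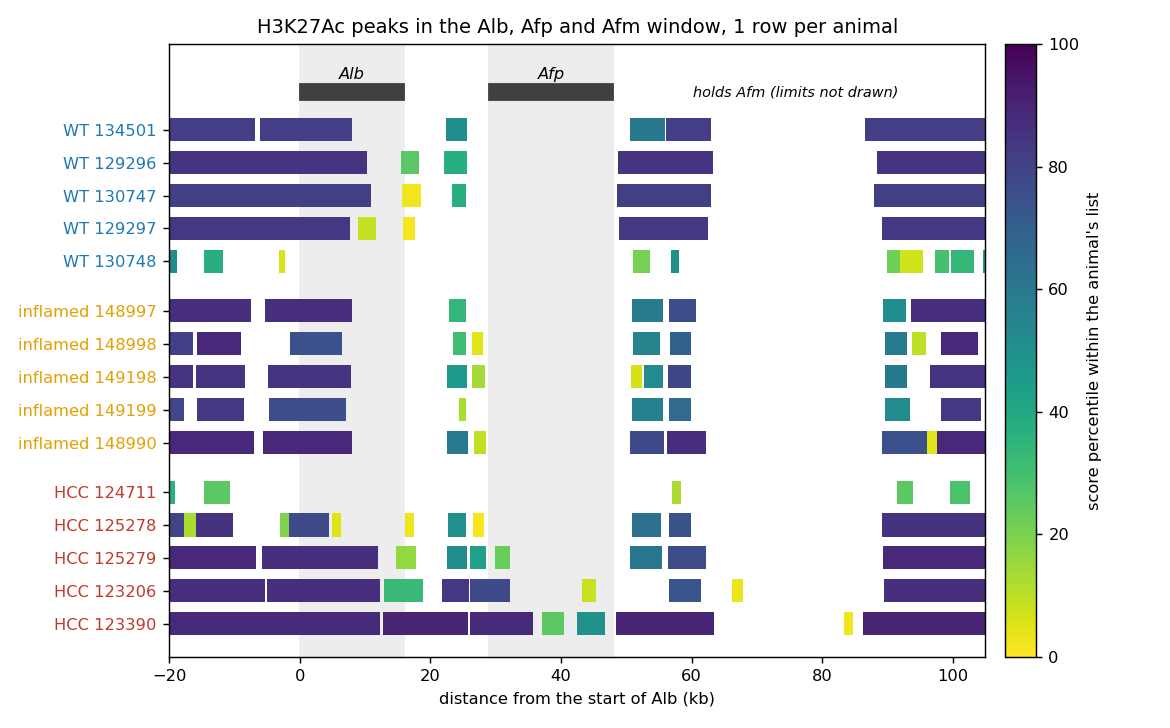
Each row is 1 animal and each bar 1 H3K27Ac peak, drawn against the distance from the start of Alb in kb and coloured by the percentile of its score within the animal's list; grey columns mark Alb and Afp. Blocks recur before and over the first part of Alb and downstream of Afp, and peaks within Afp appear in HCC 125279, 123206 and 123390 alone.

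The window was densely acetylated in most animals. WT livers had 60988, 67675, 67412, 61889 and, in 130748, 20083 bp of its 125001 bp under peaks. Inflamed livers had 52129, 40824, 48810, 40263 and 58445 bp, and HCC nodules had 11728 (124711), 48058, 68228, 72494 and 97261 bp. The nodules therefore enclosed the values of both other groups, from the lowest of the 15 values to the highest. The genome was divided into 21104 tiles of this width, including those without any peak. The window was covered more than 97.7% to 99.9% of tiles in the 13 animals with a peak in Alb. In WT 130748 it exceeded 91.7% of tiles and in HCC 124711 88.1%.

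Group means of covered length were 55609 ± 20096 bp in WT, 48094 ± 7715 bp in inflamed and 59554 ± 31953 bp in HCC samples (SD, n = 5 each). No difference passed the test, which was a two-sided exact permutation test with Benjamini-Hochberg adjustment over tiles. Adjusted p was 0.644 (exact permutation) between inflamed and WT livers, 0.836 between nodules and inflamed livers and 1 between nodules and WT livers. In covered length, groups that do not overlap were found in 22.8%, 7.1% and 2.74% of tiles for these 3 comparisons, and the groups overlapped in the window each time. Without WT 130748 and HCC 124711, all 5 inflamed livers lay below the 4 WT livers, with a difference of -16397 bp between the means (exact permutation test, p = 0.0159, adjusted over tiles p = 0.0449). The same separation with inflamed livers lower was seen in 10.9% of tiles. The p-values without these animals, here and for the stretches below, do not allow for leaving them out after their values were seen. They therefore cannot establish a difference. Without the same animals, nodules minus inflamed livers was 23416 bp (exact permutation test, p = 0.0476; adjusted over tiles p = 0.202) and nodules minus WT livers 7019 bp (exact permutation test, p = 0.6), and both pairs of groups overlapped.

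The number of peaks in the window did not follow the covered length. WT 134501, 129296, 130747 and 129297 had 5 or 6 peaks in the window, inflamed livers had 8 to 11 and nodules 5 to 12, while WT 130748 had 10. Measured by the number of peaks, inflamed livers were thus higher than WT by 3 peaks on average, the opposite sign to covered length, and this difference did not pass the test either (exact permutation test, adjusted over tiles p = 0.143).

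**Figure D2:**
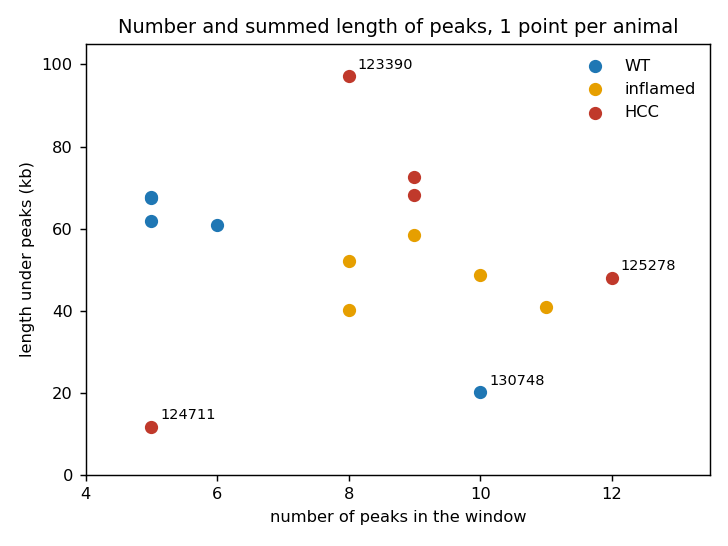
Each point is 1 animal, with the number of peaks in the window on the x axis and the summed length under peaks in kb on the y axis, coloured by group. WT livers other than 130748 sit at 5 or 6 peaks and inflamed livers at 8 to 11, and the nodules range from 124711 at the bottom to 123390 at the top.

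In the 20000 bp upstream of Alb, peaks of exceptional width were found. WT livers had 19233, 20000, 20000, 20000 and, in 130748, 4806 bp of it under peaks, so that 3 were covered from end to end. Inflamed livers had 17952, 11896, 16054, 14107 and 18584 bp, and nodules had 4820 (124711), 12633, 19096, 19635 and 20000 bp. All inflamed values lay below those of the 4 WT livers other than 130748, while the nodules spanned the whole range. With all animals the inflamed mean differed from WT by -1089 bp (exact permutation test, p = 0.778). Without WT 130748 the difference was -4090 bp (exact permutation test, p = 0.0238; adjusted over tiles p = 0.0718), a separation in this direction that 12.2% of tiles of the same width also show. Nodules minus inflamed livers was -482 bp with all animals and 2122 bp without HCC 124711 (exact permutation tests, p = 0.897 and 0.325). Nodules minus WT livers was -1571 bp, and -1967 bp without both (exact permutation tests, p = 0.587 and 0.257).

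The widest peak touching this stretch or Alb itself measured 31386, 52336, 52982 and 40010 bp in WT 134501, 129296, 130747 and 129297, and 3959 bp in 130748. In inflamed livers it measured 24849, 7955, 12700, 11897 and 25296 bp. How often other tiles differ in this way was not computed, and the lists themselves differ, with 26375 to 30268 peaks in WT and 35901 to 40909 in inflamed livers. Nodules ranged from 3874 bp in 124711 to 44595 bp in 123390. In the list of WT 130747, 99.97% of peaks were narrower than this one.

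At the start of Alb itself the mark was shared by all groups. The first 1000 bp of the gene were wholly under a peak in 4 WT livers, 5 inflamed livers and 4 nodules, and the animals without it were WT 130748 and HCC 124711. In its promoter, printed because the peak over it was common to these 13 animals, letters of 3 liver and core promoter motifs were found. The 250 bases before the start, from RefSeq on GRCm38.p6, plus strand, are given 5′ to 3′ with matches in capitals.
Alb: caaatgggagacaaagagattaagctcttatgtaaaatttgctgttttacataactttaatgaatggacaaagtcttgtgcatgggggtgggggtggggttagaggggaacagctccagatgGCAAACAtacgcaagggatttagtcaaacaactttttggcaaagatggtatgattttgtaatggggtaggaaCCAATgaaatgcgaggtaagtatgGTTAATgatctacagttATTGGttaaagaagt
The capitals mark the CCAAT box on both strands, GTTAAT, a part of the site of the hepatocyte factor HNF1, from base -32 to -27, and TGTTTGC, a FOXA motif, on the minus strand from base -128 to -122.

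Within Alb the acetylated stretch ended earlier in inflamed livers than in 3 of the nodules. The peak over the start of Alb reached 7.92, 6.49, 7.87, 7.13 and 7.96 kb into the gene in inflamed livers. It reached 7.92, 10.22, 10.9 and 7.65 kb in WT 134501, 129296, 130747 and 129297. In HCC 125278 it stopped at 4.5 kb, and in 125279, 123206 and 123390 it went on to 12.02, 12.35 and 12.24 kb, further than in any other animal. These ends depend on small gaps between called peaks. A separate peak followed soon after at chr5:90894886-90896337 in HCC 125278 and at chr5:90898846-90901729 in WT 129297. Of the 16 bins of 1000 bp that make up Alb, 8 were covered over at least 500 bp in some inflamed liver. In some WT liver 12 were covered, in some nodule 15, and in nodules alone 3. The last of those 3, from chr5:90905000, had 492 bp under a peak in WT 129296.

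The covered length of Alb was 7924, 10719, 11252, 10731 and, in 130748, 0 bp in WT livers. It was 7920, 6487, 7873, 7132 and 7958 bp in inflamed livers, the narrowest range of the 3 groups, and 0 (124711), 5956, 13263, 15406 and 15463 bp in nodules. Means were 8125 ± 4726, 7474 ± 649 and 10018 ± 6820 bp (SD, n = 5 each), and no difference passed the test (exact permutation, p = 0.873 between inflamed and WT livers, 0.532 between nodules and inflamed livers and 0.635 between nodules and WT livers). Without WT 130748, inflamed minus WT was -2683 bp (exact permutation test, p = 0.0159; adjusted over tiles p = 0.0557), although WT 134501 lay within the inflamed range. Without HCC 124711, nodules minus inflamed livers was 5048 bp (exact permutation test, p = 0.0714), and without WT 130748 as well, nodules minus WT livers was 2366 bp (exact permutation test, p = 0.4).

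Between Alb and Afp, peaks fell on 3 stretches. The first lay just beyond the end of Alb, more than 8 kb before Afp, and was touched by a peak in 3 WT livers, in 4 nodules and in 0 of 5 inflamed livers. Most of these peaks scored low in their lists, at percentile 1.29 in WT 129297, 2.02 in WT 130747 and 25.8 in WT 129296, and at 2.54, 16.2 and 32.6 in HCC 125278, 125279 and 123206. In HCC 123390 this stretch was part of a peak of 12951 bp at percentile 89.9.

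The second stretch, from 8 to 3 kb before Afp, was the one shared by all stages. A peak touched it in 3 WT livers, 5 inflamed livers and 4 nodules. Its edge towards Afp hardly moved: counted from the start of Afp, it lay at -3.4, -3.37 and -3.5 kb in WT 134501, 129296 and 130747, between -3.52 and -3.26 kb in the 5 inflamed livers and between -3.5 and -3.04 kb in the 4 nodules. Scores stood at percentile 37.1 to 51.4 in WT, 12.5 to 59.3 in inflamed and 50.1 to 89.9 in HCC samples that had the peak.

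The third stretch, the last 3 kb before Afp, had no peak in any WT liver. It had a peak in 3 inflamed livers (148998, 149198 and 148990) and in 4 nodules (125278, 125279, 123206 and 123390). In inflamed livers these peaks were small, 1589, 1899 and 1803 bp, at percentile 4.40, 13.6 and 9.28, and they ended between -0.97 and -0.52 kb from the start of Afp. HCC 125278 had a peak of the same kind, 1674 bp wide at percentile 1.48, and HCC 125279 one of 2399 bp at percentile 43.4. In HCC 123206 and 123390 the peak was 6098 and 9583 bp wide, stood at percentile 77.6 and 88.3, and crossed into Afp.

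Summed over the 12999 bp between the genes, WT livers had 3199, 5753, 4728, 1682 and 0 (130748) bp under peaks. Inflamed livers had 2609, 3628, 4963, 1072 and 4963 bp, and nodules had 0 (124711), 5873, 7288, 10095 and 12666 bp. The 4 nodules with any peak here lay above all 10 WT and inflamed livers. With all nodules, the HCC mean of 7184 ± 4792 bp was 3737 bp above inflamed livers (3447 ± 1656 bp) and 4112 bp above WT livers (3072 ± 2308 bp; SD, n = 5 each), and neither difference passed the test (exact permutation tests, p = 0.159 and 0.135). Without HCC 124711 and WT 130748 the nodules were higher by 5534 bp than inflamed livers (exact permutation test, p = 0.00794; adjusted over tiles p = 0.111) and by 5140 bp than WT livers (exact permutation test, p = 0.0286, the smallest that 4 against 4 allow; adjusted over tiles p = 0.316). Tiles of this width separate in that direction, nodules higher, in 4.27% and 5.53% of cases.

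**Figure D3:**
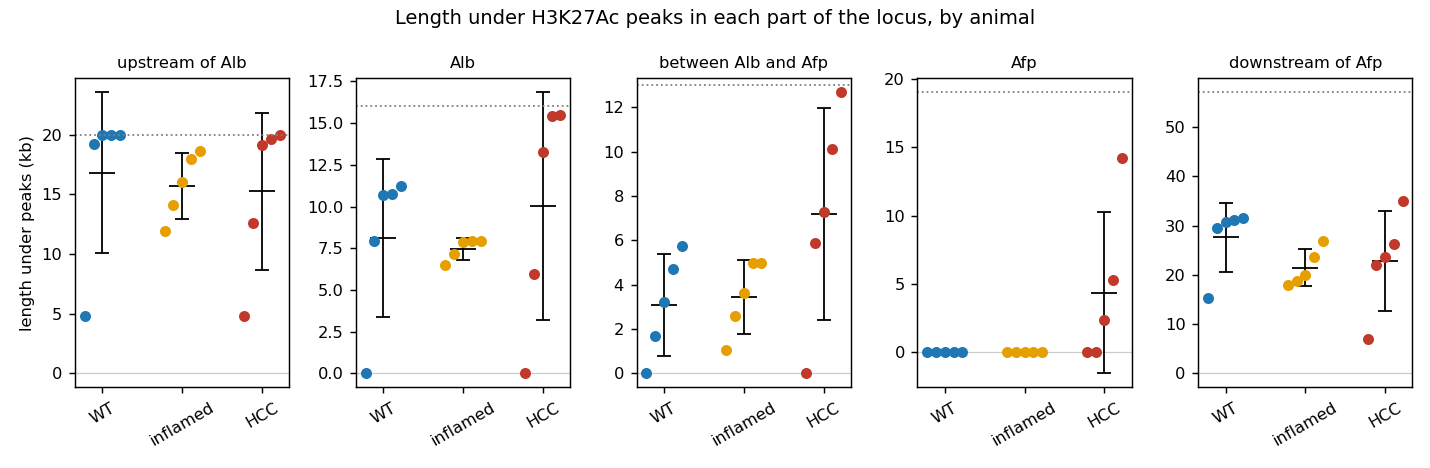
Each point is 1 animal and each panel 1 stretch of the locus, with the length under peaks in kb on the y axis; bars give the group mean with its SD (n = 5) and the dotted line the length of the stretch. Afp is at 0 in all 10 WT and inflamed livers and at 2345, 5284 and 14181 bp in 3 nodules.

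Within Afp, peaks were found in nodules alone, and in 3 of the 5. All 5 WT and all 5 inflamed livers had 0 bp of the 19001 bp under peaks, as did HCC 124711 and 125278. HCC 125279 had 2345 bp in 1 peak, from 0.84 to 3.19 kb after the start of the gene, at percentile 22.8 of its list. HCC 123206 had 5284 bp, of which the larger piece was the peak crossing the start and ending 3.12 kb into the gene, and the other, at percentile 8.15, lay 14.28 to 16.43 kb into it. HCC 123390 had 14181 bp, in the peak over the start that ended at 6.64 kb and in further peaks from 8.14 to 11.44 kb and from 13.52 to 17.75 kb, at percentile 25.0 and 49.1. The 3 nodules shared the second kb of Afp, which was covered in full in each.

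The HCC mean for Afp was 4362 ± 5903 bp (SD, n = 5), against 0 in each other group, and did not pass the test (exact permutation tests, p = 0.167 for both comparisons; adjusted over tiles p = 0.593 against inflamed and 0.716 against WT livers). Without HCC 124711, the difference from inflamed livers was 5453 bp (exact permutation test, p = 0.0476; adjusted over tiles p = 0.234). The groups still overlapped, since HCC 125278 had no peak in the gene, and without WT 130748 as well the difference from WT livers had p = 0.143 (exact permutation test). The 3 nodules with a peak in Afp had 175, 138 and 169 Mb under peaks in their whole lists (125279, 123206 and 123390), and 125278 without one had 147 Mb. With equal lists of the best 26375 peaks, HCC 125279 no longer had a peak in Afp, HCC 123206 kept 3126 bp and HCC 123390 kept 14181 bp, so that 2 of 5 nodules had one (exact permutation tests against either group, p = 0.444). With the top 50% of each list the same nodules had 3126 and 6643 bp. No WT or inflamed liver had a peak in Afp under either setting. Afp was also ranked among all tiles of its width, including those without any peak. Of these, 14181 bp exceeded 98.1% in HCC 123390, 5284 bp exceeded 93.1% in HCC 123206 and 2345 bp exceeded 81.6% in HCC 125279.

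The promoter of Afp is printed because peaks over the gene's start were seen in HCC 123206 and 123390, whereas WT and inflamed livers had none. It comes from the same table, build and strand, with the 250 bases before the start and matches in capitals.
Afp: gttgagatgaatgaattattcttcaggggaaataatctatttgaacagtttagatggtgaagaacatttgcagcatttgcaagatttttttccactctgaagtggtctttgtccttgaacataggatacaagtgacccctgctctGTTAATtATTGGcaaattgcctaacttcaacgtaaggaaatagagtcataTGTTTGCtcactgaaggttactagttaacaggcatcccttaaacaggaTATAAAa
It held GTTAAT from base -105 to -100, followed by a CCAAT box on the minus strand (-98 to -94), TGTTTGC from -55 to -49 and the TATA box TATAAA close to the annotated start. Alb and Afp thus shared the HNF1, CCAAT and FOXA letters, and the promoter of Alb held no match to TATAAA. Other forms of the TATA box were not searched for. The motifs were searched on both strands of the 300 bases from 250 before to 50 after each start, and none of the printed matches overlap. Among all 32851 promoters in the table, 7.1% held this HNF1 motif, 37.4% the CCAAT box, 5.07% this FOXA motif and 13.6% the TATA box. The promoter of Afm held the HNF1 motif on each strand, the nuclear receptor core motif AGGTCA on each strand (in 16.3% of promoters), a CCAAT box and a TATA box. TGTTTAC, another FOXA motif (3.65%), and TTGCGCAA, a C/EBP palindrome (0.183%), were in none of the 3. A match is only a match of letters. The GC content was 40% for Alb and Afp and 33.0% for Afm, against a median of 52.7% over all promoters.

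Downstream of Afp, where Afm lies, the mark was present in every animal. WT livers had 30632, 31203, 31432, 29476 and, in 130748, 15277 bp under peaks. Inflamed livers had 23648, 18813, 19920, 17952 and 26940 bp, and nodules had 6908 (124711), 23596, 26236, 22074 and 34951 bp. The 4 WT livers other than 130748 lay between 29476 and 31432 bp, above every inflamed liver. With all animals inflamed minus WT was -6149 bp (21455 ± 3758 against 27604 ± 6932 bp, SD, n = 5 each; exact permutation test, p = 0.127; adjusted over tiles p = 0.273). Without WT 130748 it was -9231 bp (exact permutation test, p = 0.0159; adjusted over tiles p = 0.0484), a separation that 11.6% of tiles of this width show in the same direction. Nodules, at 22753 ± 10163 bp (SD, n = 5), passed the test against neither group (exact permutation tests, p = 0.794 against inflamed and 0.421 against WT livers). Without HCC 124711 they were 5260 bp above inflamed livers (exact permutation test, p = 0.135), and without WT 130748 as well, nodules minus WT livers was -3972 bp (exact permutation test, p = 0.229).

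Fewer peaks were called downstream of Afp in nodules than in inflamed livers. Each of the 5 nodules had 3 peaks here, and inflamed livers had 5, 6, 5, 4 and 5 (exact permutation test, p = 0.00794, the smallest that 5 against 5 allow; adjusted over tiles p = 0.293). Fewer peaks in every nodule than in every inflamed liver was seen in 2.43% of tiles of this width. WT livers had 3, 2, 2, 2 and, in 130748, 7 peaks here, and nodules minus WT livers was -0.2 peaks. The 3 peaks of HCC 123206 and 123390 included a small one of 1667 and 1323 bp. A low count can also mean that a peak was absent. The 1000 bp from chr5:90941000 were under a peak in 5 WT livers, 5 inflamed livers and 3 nodules, with 0 bp in HCC 124711 and 123206. The widest piece ran to 20739, 20543, 20596 and 37563 bp in HCC 125278, 125279, 123206 and 123390 and to 2918 bp in HCC 124711. In inflamed livers it ran to 5743 to 12903 bp. In WT livers it ran to 24431, 22598, 23000, 20900 and, in 130748, 3525 bp. These widths were not compared with those in other tiles.

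The downstream peaks formed a pair of blocks with a gap between them. The first block, chr5:90938498-90953405, began just after the end of Afp, and the second, chr5:90976281-91013843, ran out of the window. Both had a peak in all 15 animals. In the first block WT livers had 12264, 14558, 14423, 13690 and 3967 (130748) bp under peaks, inflamed livers had 7490 to 11178 bp, and nodules had 1476 (124711), 7811, 10566, 4896 and 14908 bp. Between the blocks, WT and inflamed livers had no merged region, and HCC 123206 and 123390 had 1 each, of 1667 and 1323 bp.

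**Figure D4:**
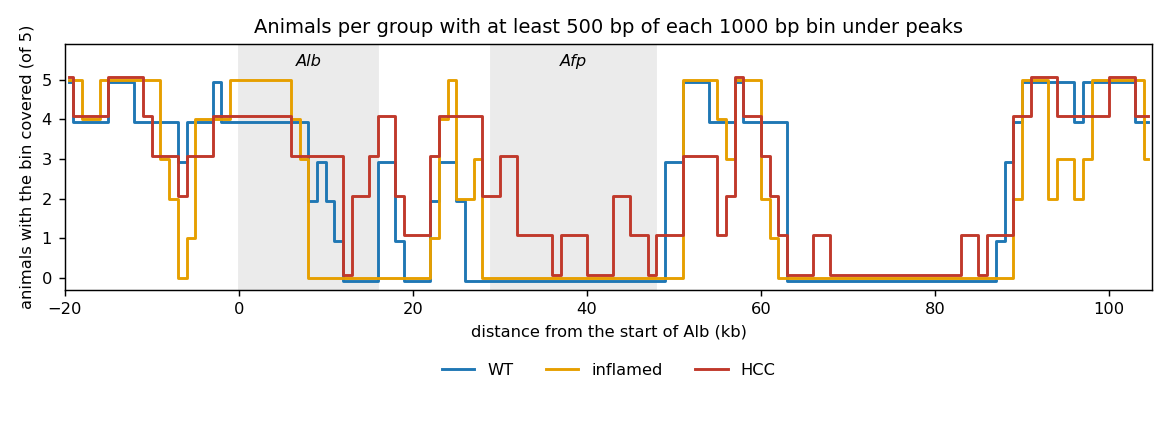
The x axis is the distance from the start of Alb in kb and the y axis the number of animals of each group, of 5, with at least 500 bp of a 1000 bp bin under peaks, with the 3 lines shifted slightly so that they can be told apart. Over Afp the WT and inflamed lines stay at 0 while the HCC line reaches 3, and beyond 8 kb from the start of Alb the inflamed line drops to 0 before those of the other groups.

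Counted by merged region, 3 of the 9 had a peak in all 15 animals, against 21.3% of the 56941 regions of the genome. These were the block upstream of and over Alb (chr5:90847890-90902348) and both downstream blocks. The region chr5:90902776-90915956, from the end of Alb into the space before Afp, had a peak in 4 WT livers, 5 inflamed livers and 4 nodules. The merged region that runs across the start of Afp, chr5:90916028-90925642, had a peak in 0 WT livers, 3 inflamed livers and 4 nodules. A peak lay over the start itself only in HCC 123206 and 123390, and the inflamed peaks ended before it. The remaining 4 regions had a peak in nodules alone, as did 21.5% of all regions: chr5:90927135-90930442 and chr5:90932520-90936749, both within Afp, in 1 and 2 nodules, and those between the downstream blocks in 1 each.

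Bin by bin, 100 of the 125 bins of 1000 bp were covered in at least 1 animal. Of these, 27 were covered in nodules alone, 14 of them within Afp, against 21.7% of such bins over the genome. Most of the 27, and most of the 14 within Afp, were covered in HCC 123390 only. Some of the 27, all outside Afp, held peak stretches in other groups that were too short to count as covered. The bin from chr5:90905000 had 492 bp in WT 129296, and that from chr5:90918000 had 476 bp in inflamed 148990. Of the 100 bins, 10 were covered in all 15 animals, against 15.4% over the genome. No bin was covered in WT or in inflamed livers alone. No bin was covered in 5 of 5 animals of 1 group and 0 of 5 of another in any comparison, whereas 5.31% of bins of the genome were between inflamed and WT livers, 1.19% between nodules and inflamed livers and 0.413% between nodules and WT livers. By Fisher's exact test, 1 of 73 bins tested, 2 of 100 and 2 of 100 had an unadjusted p under 0.05 in these comparisons, against 13.7%, 4.85% and 3.05% of bins of the genome, and none passed after adjustment over all bins of the genome. Those higher in nodules than in WT livers were the bins starting at chr5:90916000 and chr5:90917000, 3 and 2 kb before Afp, covered in 0 WT livers and 4 nodules (Fisher's exact test, p = 0.0476, adjusted p = 1). Those higher in nodules than in inflamed livers were the bins from chr5:90906000 and chr5:90907000, just after Alb, covered in 0 inflamed livers and 4 nodules (Fisher's exact test, p = 0.0476, adjusted p = 0.982). The bin lower in inflamed than in WT livers, from chr5:90952000, at the far end of the first downstream block, was covered in 4 WT and 0 inflamed livers (Fisher's exact test, p = 0.0476, adjusted p = 0.348).

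Among merged regions outside the window, those whose covered length over the 15 animals was most like that of Afp were chr6:149030510-149036051 (Pearson r = 0.989), chr15:8986696-8992275 (r = 0.987) and chr16:51984429-51990082 (r = 0.987). Each was wholly covered in HCC 123390, partly in HCC 123206 and at 0 in all WT and inflamed livers, and the first was also covered over 1596 bp in HCC 125279. These coefficients rest on 2 or 3 nodules with values above 0 and are a description of regions picked for likeness. Which genes lie there was not analysed.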

How the data were processed

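H3K27Ac ChIP-seq was analysed for 5 WT livers, 5 inflamed livers and 5 HCC nodules. A control library, grouped as an IgG control but titled as an input of WT liver, was not analysed here. Per the labels, chromatin of fixed tissue was immunoprecipitated with an Abcam antibody (ab4729). The submitters' processing notes name Bowtie 0.12.7, MACS 1.4 and mm9. The authors deposited 1 list per animal with the position of each peak and the peak caller's score, whose scale is not stated; other settings are not given in the sources used here. The lists hold no read counts, so a shallower library can yield fewer or narrower peaks. The study set aside a pair of its libraries in 1 of its own analyses; which ones is not given in the text used here.

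Peaks on chromosomes 1 to 19 and X were used, with starts made 1-based. Overlapping peaks of all animals were merged. The test of covered length permuted the animals over all arrangements, two-sided, on the difference between group means (252 arrangements for 5 against 5), unadjusted over 15 tests for the 5 stretches. Adjusted p-values (Benjamini-Hochberg) run over all tiles of the genome of the same width with a peak in the groups compared, which for the stretches was added after the data were seen. Bins were compared by Fisher's exact test. A score percentile is the share of the list with a lower score. No mm9 annotation was used, so no further genes were placed. Promoters are from RefSeq (GRCm38.p6, all 3 genes matched). Alb, Afp and Afm follow each other there without a gene between them. The pseudogene Gm2602 and the protein-coding gene Albfm1 come next, and whether they reach into the mm9 window was not established. Named genes were Alb, Afp and Afm, with those 2 named only as neighbours. Named outside regions were the 3 with the highest Pearson correlation with Afp. The members and lists were chosen with earlier results of these data known. Scripts were tested on simulated data. Python 3.11.15, NumPy 2.4.6, SciPy 1.17.1, pandas 2.3.3 and matplotlib 3.10.9 were used.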

Additional observations from a re-analysis of the deposited data

Results flagged for a closer look

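Within its group, WT 130748 stood far from the other 4 WT livers in the covered length of the window (20083 bp), of the stretch upstream of Alb (4806 bp) and of the stretch downstream of Afp (15277 bp). In each case its gap to the nearest WT liver exceeded Dixon's 95% critical value for 5 samples. Chance flags about 1 in 20 groups, and 3 of 18 were flagged, all in this 1 animal, whose values in overlapping stretches are not independent. HCC 124711, with the lowest covered length of the window, was not flagged, because the other nodules were widely spread.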

How the results depend on the processing

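Positions and scores limit these results: depth is unknown, the limits of Alb and Afp are approximate, and p-values over 5 animals a group cannot fall below 0.00794. Of the alternatives, 317 kept direction and side of the threshold or changed a count little, such as regions in nodules alone from 4 to 6 or 3. Another 26 turned direction, 27 newly passed a threshold or raised a count of bins from 0, and 4 moved a count of regions further. The number of peaks downstream, HCC minus inflamed, both turned direction and newly passed (exact permutation p = 0.00794). Causes were not tested. No paired analysis was possible because the groups share no replicate numbers.

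Leaving out 1 animal at a time moved the inflamed minus WT difference from -16397 to -4499 bp in the window, -4090 to -134 bp upstream of Alb, -2683 to 131 bp in Alb, -394 to 1045 bp between the genes and -9231 to -5192 bp downstream. The values that newly passed came without WT 130748. HCC minus inflamed ran from 2033 bp (without 123390) to 23416 bp (without 124711) in the window, -1673 to 2122 bp upstream of Alb, 1182 to 5048 bp in Alb, 2367 to 5534 bp between the genes, 1907 to 5453 bp in Afp and -1751 to 5260 bp downstream. HCC minus WT ran from -5482 to 15901 bp in the window, -4571 to 1033 bp upstream, -139 to 4397 bp in Alb, 2742 to 5908 bp between the genes, 1907 to 5453 bp in Afp and -7933 to -890 bp downstream. HCC values newly passed without 124711 between the genes (against WT, exact permutation p = 0.0159) and without 124711 or 125278 in Afp, where 5453 bp had an exact permutation p = 0.0476 in either case. Without HCC 123390 the mean for Afp fell to 1907 bp. Bins with every animal of 1 group and none of another went from 0 to 1 for inflamed against WT and from 0 to 2 for both HCC comparisons, and regions in nodules alone from 4 to 2.

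Without both WT 130748 and HCC 124711, inflamed minus WT was -16397 bp in the window, -4090 bp upstream of Alb, -2683 bp in Alb, -394 bp between the genes and -9231 bp downstream. HCC minus inflamed was then 2122 bp upstream, 5534 bp between the genes and 5453 bp in Afp, and HCC minus WT 5140 bp between the genes, with 1, 2 and 2 bins called. Counting peaks in place of length gave inflamed minus WT values of 3 in the window, 1 upstream of Alb and 1.8 downstream, HCC minus inflamed values of -0.6 in the window and -2 downstream, and 0.8 for HCC minus WT upstream. With the top 50% of each list, inflamed minus WT was 134 bp in Alb and -7.8 bp between the genes, 0 regions had a peak in every animal and 1 in nodules alone. For Afp, HCC minus either group was 1954 bp with the top 50% and 3461 bp with equal lists (exact permutation p = 0.444 for both), and 27.1 bp per Mb under peaks (exact permutation p = 0.167). Equal lists gave -463 bp between the genes for inflamed minus WT. Per Mb under peaks in the list, inflamed minus WT was -67.6 bp downstream (exact permutation p = 0.0238) and HCC minus WT was -36.6 bp in the window. Asking for at least 4 of 5 against at most 1 of 5 called 3, 3 and 4 bins, and asking for at least 50% of a region left 0 regions present in every animal.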
